A study of Arabidopsis thaliana with 12 samples.

Results

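THIC (AT2G29630) encodes a plastid enzyme of thiamine (vitamin B1) synthesis, and its transcript level was followed here in wild-type Arabidopsis thaliana plants of ecotype Columbia 0 at 2 ages. The array table pairs 1 probe with THIC alone, out of 3439 probes and 691 genes that have a probe of their own, and 0 probes with several genes list it. The gene was selected on measured values, its levels in the 12 samples, its change with age and its rank on the arrays, so these are given as a description and without a p-value. Total RNA was measured in 6 samples of 4-week-old and 6 of 2-week-old plants, and both groups were wild type with no treatment named. The labels give neither organ nor growth conditions, and nothing in them tells separate plants from repeat measurements, so that SDs and p-values cover the spread between these samples, which may be technical.

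Plants make thiamine from a pyrimidine and a thiazole, which are built separately in the plastid and then joined. THIC makes the pyrimidine from aminoimidazole ribonucleotide, an intermediate of purine synthesis, with an iron-sulfur cluster and S-adenosylmethionine. The end product, thiamine pyrophosphate, is the cofactor of transketolase in the Calvin cycle, of pyruvate and oxoglutarate dehydrogenases and of other central enzymes. A riboswitch downstream of the coding sequence of THIC binds thiamine pyrophosphate and alters processing of the transcript, and the gene is also under control of the circadian clock. RefSeq lists 4 transcripts of THIC. The sources used here do not say which of them the probe reads, and the hour at which plants were collected is not given in the labels.

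The deposited intensities are linear and run from 0 to 100 on each array. THIC had deposited intensities of 0.447, 0.390, 0.389, 0.497, 0.317 and 0.298 in 4-week samples 1 to 6. In 2-week samples 1 to 6 its deposited intensities were 0.509, 0.402, 0.511, 0.602, 0.365 and 0.355. The ages overlapped on this scale, with 4-week samples at 0.390 ± 0.0756 (SD, n = 6) and 2-week samples at 0.457 ± 0.0988. For each of the 6 sample numbers that the ages share, however, the 4-week value was the lower one, by 3.18% for number 2 at the least and by 23.8% for number 3 at the most. The mean deficit was 14.3% ± 6.83 (SD, n = 6 numbers). Among the tested probes, 11.6% were likewise lower at 4 weeks for all 6 numbers.

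The arrays of the ages were not on one level. The 4-week arrays had a median deposited intensity over all probes of 0.412 ± 0.0240 (SD, n = 6), the 2-week arrays one of 0.108 ± 0.00931, and between 421 and 694 probes per array stood at exactly 0. THIC therefore stood close to the array median at 4 weeks, at 0.731 to 1.25 times it, and well above it at 2 weeks, at 3.07 to 5.38 times. After quantile normalization, which gives the arrays the same distribution of values, the normalized intensity of THIC in 4-week samples 1 to 6 was 0.266, 0.224, 0.260, 0.328, 0.206 and 0.189. In 2-week samples 1 to 6 it was 0.843, 0.718, 0.802, 0.896, 0.639 and 0.610. All 4-week samples lay below all 2-week samples on this scale, a pattern shared by 23.7% of the 2961 tested probes and genes, and the means were 0.245 ± 0.0503 and 0.751 ± 0.114 (SD, n = 6). The log2 difference, 4 weeks minus 2 weeks, was -1.62, or 3.08-fold lower at 4 weeks.

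**Figure D1:**
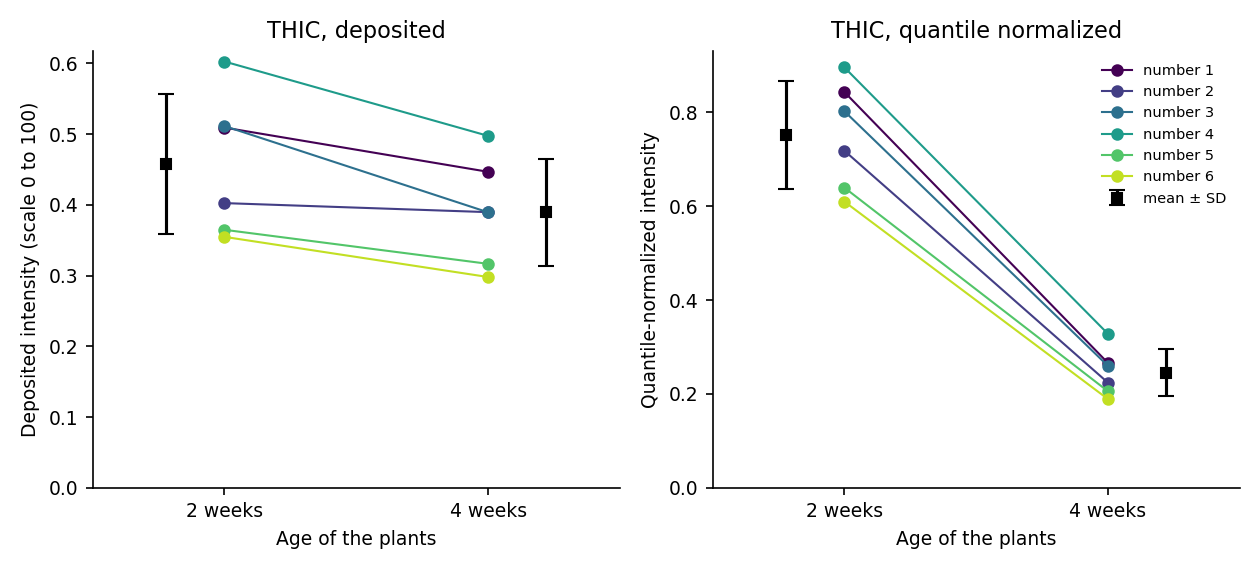
Intensity of THIC in each sample at 2 and 4 weeks, as deposited at left and after quantile normalization at right; lines join samples of the same number, and squares with bars are means ± SD of 6 samples. The deposited values of the ages overlap, between 0.298 and 0.602, whereas the normalized values do not, with 0.189 to 0.328 at 4 weeks and 0.610 to 0.896 at 2 weeks.

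The size of the normalized difference was nearly the same for each sample number. It ran from 2.73-fold for number 4 to 3.23-fold for number 6, and the log2 differences averaged -1.62 ± 0.0894 (SD, n = 6 numbers). The spread within an age was larger, at an SD of 0.288 on the log2 scale at 4 weeks and 0.223 at 2 weeks. From the highest normalized intensity to the lowest, the order of the sample numbers was 4, 1, 3, 2, 5, 6 at 4 weeks and the same at 2 weeks. As deposited, the order was 4, 1, 2, 3, 5, 6 at 4 weeks and 4, 3, 1, 2, 5, 6 at 2 weeks, with number 4 highest and numbers 5 and 6 lowest in both. Number 4 lay above its age mean by 0.44 at 4 weeks and by 0.27 at 2 weeks on the log2 scale, and number 6 lay at -0.35 and -0.29. Such likeness between the ages was not particular to THIC. Over all tested features, each of the 12 samples deviated most like its own number at the other age (r of 0.16 to 0.44). Across all tested features, adjacent numbers of an age (1 and 2, 3 and 4, 5 and 6) also deviated more alike than other pairs. Their r was 0.41 to 0.50 at 4 weeks and, less closely, 0.01 to 0.31 at 2 weeks. Other pairs had r of -0.47 to -0.26 at 4 weeks and -0.36 to -0.22 at 2 weeks. The 6 samples of an age may therefore hold fewer independent units. With numbers 1 and 2, 3 and 4, and 5 and 6 averaged, normalized THIC came to 0.245 ± 0.0483 (SD, n = 3) for the older plants and 0.751 ± 0.115 for the younger, still without overlap.

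The spread of THIC between samples of an age was ordinary for this array. Of the 2293 probes and genes that lay above the floor on all 12 arrays, 50.6% had a smaller SD than THIC at 4 weeks and 35.4% at 2 weeks. The medians of these SDs were 0.285 and 0.289 on the log2 scale.

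The rank of a probe within its own array does not move when the array is rescaled. A rank does depend on how well a probe binds its target as well as on transcript level, so it is set here against the same probe at the other age. THIC was the 1427th to 2087th brightest of the 3439 probes at 4 weeks and the 436th to 723rd brightest at 2 weeks. In 4-week samples 1 to 6 its percentile, counted from the dimmest probe, was 50.9, 44.7, 49.9, 58.5, 41.9 and 39.3. In 2-week samples 1 to 6 the percentile of THIC was 86.2, 82.9, 85.3, 87.3, 80.2 and 79.0. The lowest 2-week sample thus stood above the highest 4-week sample, a pattern in rank shared by 23.7% of the 2962 tested probes. Quantile-normalized intensity is set by rank within the array, so this restates the normalized result and is no separate evidence. The 4-week samples had a mean percentile of 47.5 ± 7.0 (SD, n = 6) and the 2-week samples one of 83.5 ± 3.38, which is a difference of -36.0 percentile points, and for single numbers the difference ran from -39.7 to -28.8. Ranked within the 692 single-gene probes alone, THIC had a mean percentile of 47.3 ± 7.16 at 4 weeks and 85.7 ± 3.44 at 2 weeks.

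**Figure D2:**
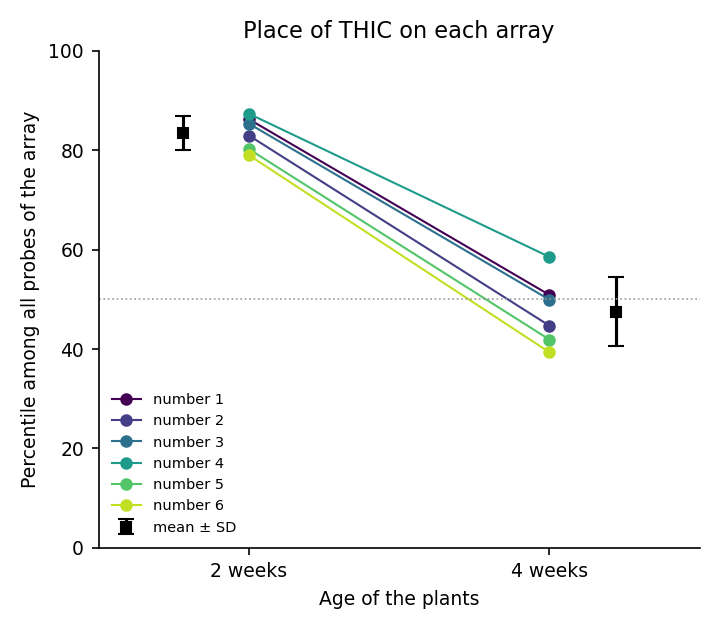
Percentile of THIC among all 3439 probes of each array, from the dimmest at 0 to the brightest at 100; lines join samples of the same number, squares with bars are means ± SD of 6 samples, and the dotted line marks the middle of the array. The 2-week samples lie between 79.0 and 87.3 and the 4-week samples between 39.3 and 58.5.

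Few tested probes had a larger deficit in rank. For 200 of 2962 tested probes, or 6.75%, the difference in mean percentile was more negative than for THIC, while the median difference over the 2962 was 0.784 percentile points and the range -71.6 to 80.2. Probes that were dim at 2 weeks had no room for so large a fall in rank, and this share was not matched for starting level. On the normalized log2 scale 13.2% of tested probes and genes had a more negative difference than THIC. Within sample numbers, between 1067 and 1429 probes were dimmer than THIC at 2 weeks and brighter than it at 4 weeks, whereas only 65 to 83 passed it in the other direction. These counts restate the difference in rank and are no separate evidence of it.

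How large the difference in THIC level was depended on the scaling of the arrays, and its direction did not under the 5 scalings tried. All 5 reuse the same values of a gene selected on them, so they are no separate checks of the direction. The log2 difference was -0.23 (SE 0.18) in the deposited values and -0.41 (SE 0.18) when each array was divided by its summed intensity. It was -1.56 (SE 0.15) with zeros treated as missing before quantile normalization, -1.62 (SE 0.16) as reported, and -1.93 (SE 0.17) with each array centred on the median of its positive values. In folds these run from 1.17-fold to 3.81-fold lower at 4 weeks. Relative to the median of all tested probes, the position of THIC moved less, in part by construction. The median log2 difference over all probes was 1.82 in the deposited values, 1.64 as a share of the sum, 0.10 after quantile normalization and 0.14 under median centring. THIC lay at -2.05, -2.05, -1.72 and -2.07 against these medians. Deposited, share-of-sum and median-centred values differ by a common factor per array, which cancels in this comparison. Apart from the floor and the filter, their likeness was therefore fixed in advance and is no evidence of a stable position. In the deposited values 15.9% of the tested probes were lower at 4 weeks, and THIC was one of them. After quantile normalization 47.4% were.

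**Figure D3:**
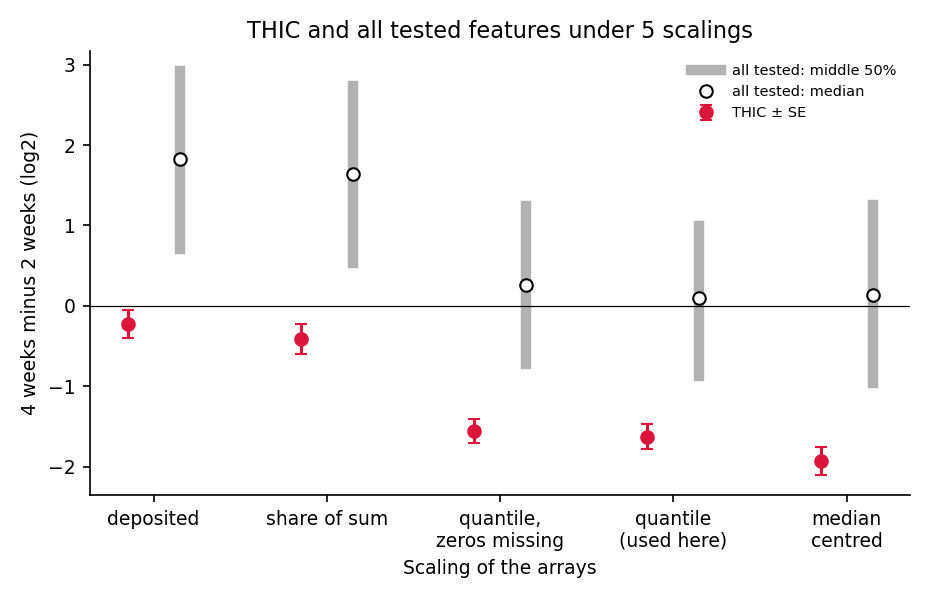
Log2 difference of THIC (red, ± SE) and of all tested probes and genes (circle for the median, grey bar for the middle 50%) between 4 and 2 weeks, under 5 ways of scaling the arrays. THIC runs from -0.23 in the deposited values to -1.93 under median centring, and it lies below the grey bar in each.

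Among all changes, that of THIC was moderately far out. After quantile normalization 392 of 2961 probes and genes, or 13.2%, had a more negative log2 difference, and among the 593 tested genes with a name 67, or 11.3%, did. In the deposited values, whose earlier scaling is not given, these shares were 13.9% and 11.1%. Because changes may depend on level, the comparison was also read among probes of like intensity. Tested probes were divided by mean normalized intensity into 4 groups of equal size, and THIC lay in group 3, the second brightest. The median log2 difference of the 740 probes in that group was 0.08, with the lower and upper quartiles at -0.79 and 0.84, and 10.0% had a more negative value than THIC. In the deposited values 10.3% of that group did, around a median of 1.74.

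**Figure D4:**
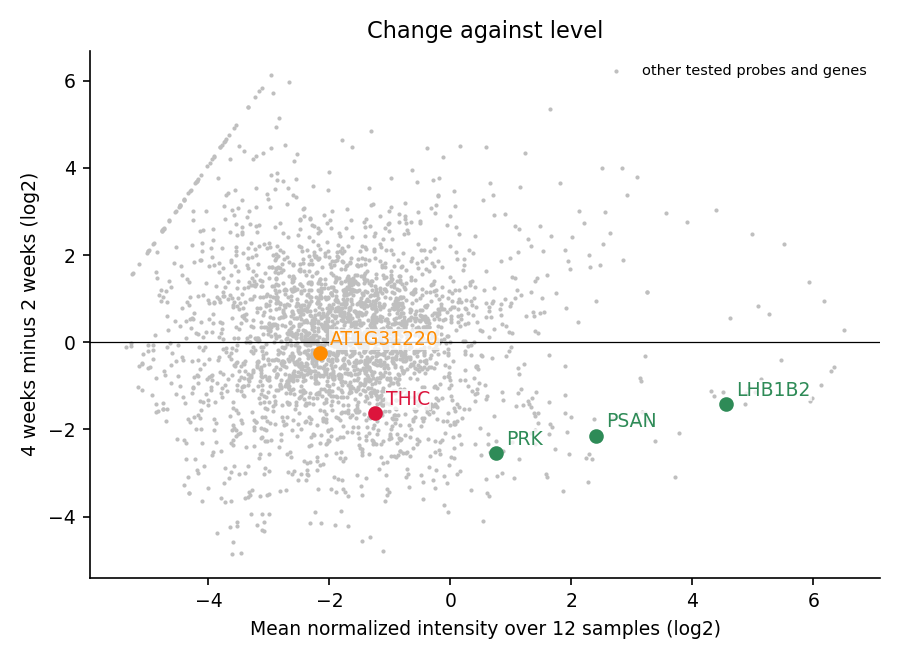
Log2 difference, 4 weeks minus 2 weeks, against mean normalized log2 intensity for 2961 tested probes and genes, with THIC in red, the purine synthesis gene AT1G31220 in orange and 3 leaf genes in green. THIC lies at -1.62 amid probes of middling intensity, AT1G31220 at -0.25 and the leaf genes from -2.54 to -1.43.

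Other steps of the pathway are hardly represented by single-gene probes. Of 96 loci in 8 lists (thiamine synthesis, thiamine pyrophosphate enzymes, purine synthesis, plastid iron-sulfur assembly, S-adenosylmethionine supply, vitamin B6, other plastid vitamins and the circadian clock), 2 have such a probe, and THIC is one of them. THIC is the 1 gene of 7 in thiamine synthesis, so the thiazole branch, the joining step and the kinases that make the cofactor were not analysed here. A further 7 of the 96 loci occur on probes that list several genes, from which no gene was named.

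The other gene with a probe is AT1G31220, whose enzyme, glycinamide ribonucleotide transformylase (PUR3), acts upstream of the intermediate that THIC consumes. Its normalized intensity in 4-week samples 1 to 6 was 0.202, 0.182, 0.248, 0.209, 0.182 and 0.218, and in 2-week samples 1 to 6 it was 0.231, 0.149, 0.375, 0.265, 0.301 and 0.208. The ages overlapped, with means of 0.207 ± 0.0247 and 0.255 ± 0.0784 (SD, n = 6). In limma, a linear model fitted across all 2961 probes and genes with p-values adjusted by Benjamini-Hochberg and a threshold of 0.05, the log2 difference of AT1G31220 was -0.25 (SE 0.20, adjusted p = 0.285), against 64.6% of all tested probes and genes that passed in either direction. Its direction rested on the scaling. In the deposited values AT1G31220 was called higher at 4 weeks, at 1.77 (limma adjusted p = 9.24e-05), on a scale where 75.7% of all tested probes and genes were called higher and the median difference was 1.82, and under median centring it stood at 0.070 (limma adjusted p = 0.834). Within arrays, where a common factor cancels, the log2 difference of THIC less that of AT1G31220 was -2.0, with an SD of 0.52 within an age.

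Leaf genes were checked because the labels name no organ, from a list chosen with earlier results of these data known. Of 12 green-leaf markers, 3 have a single-gene probe, and all 3 lay above the floor on all 12 arrays. The normalized intensity of LHB1B2, a light-harvesting antenna protein, averaged 14.6 ± 2.58 in the older plants (SD, n = 6) and 39.0 ± 6.50 in the younger. PSAN, a photosystem I subunit, had 2.54 ± 0.390 and 11.4 ± 2.82. PRK, the phosphoribulokinase of the Calvin cycle, had 0.701 ± 0.0632 and 4.08 ± 0.367. The 3 genes fell at 4 weeks in limma, as did 31.1% of all tested probes and genes, while 33.6% rose, with log2 differences of -1.43 (adjusted p = 5.60e-06), -2.15 (adjusted p = 2.22e-07) and -2.54 (adjusted p = 7.23e-10) for LHB1B2, PSAN and PRK in turn. The median of the 3 was -2.15, against 0.10 over all tested.

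THIC and these leaf genes shared the direction of change, and its size differed with the scale. In the deposited values THIC, at -0.23, was lower by far less than LHB1B2 at -1.86, PRK at -2.09 and PSAN at -2.32. Within arrays, the log2 difference of THIC was above that of LHB1B2 by 1.63, of PRK by 1.87 and of PSAN by 2.09, with SDs within an age of 0.25, 0.45 and 0.40. After quantile normalization THIC, at -1.62, lay between LHB1B2 and PSAN. No marker among 30 for root, flower, seed and senescence has a single-gene probe, so a difference in organ make-up between the ages was not tested. In RNA from whole tissue, fewer cells that express a gene and less transcript per cell cannot be told apart.

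The genes most like THIC were sought among the 453 other named genes that lay above the floor on all 12 arrays, by Pearson's r of normalized log2 intensity over the 12 samples. Such an r is a description. It is dominated by the difference between the ages, and the samples of an age share numbers that deviate together. With THIC, 60 genes had r above 0.9 and 49 below -0.9. The 6 highest were AT2G46630 at 0.987, AT1G54500, of the rubredoxin family of iron proteins, at 0.987, AT1G32730 at 0.979, AT3G26630 at 0.977, AT3G47650, which encodes the Rubisco assembly chaperone BSD2, at 0.977 and AT1G64430 at 0.976.

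All 6 were lower at 4 weeks, since the choice by r fixes that direction. AT1G54500 came closest to THIC in size as well, at 0.288 ± 0.0840 normalized in 4-week samples and 0.943 ± 0.0879 in 2-week samples (SD, n = 6), a log2 difference of -1.75. Its deposited values also moved little, at -0.51. AT3G26630 had 13.5 ± 1.40 and 29.2 ± 2.60, with the smallest log2 difference of the 6, -1.12. The log2 differences of the other 4 ran from -3.32 for AT1G64430 to -2.49 for AT1G32730. The 3 lowest r belonged to AT2G46850 at -0.982, AT1G06510 at -0.979 and AT1G76450 at -0.978, all higher at 4 weeks, by 3.15, 3.53 and 1.93 on the log2 scale. They were also higher in the deposited values, by 4.41, 5.86 and 2.42, and under median centring, by 2.71, 4.24 and 0.72.

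**Figure D5:**
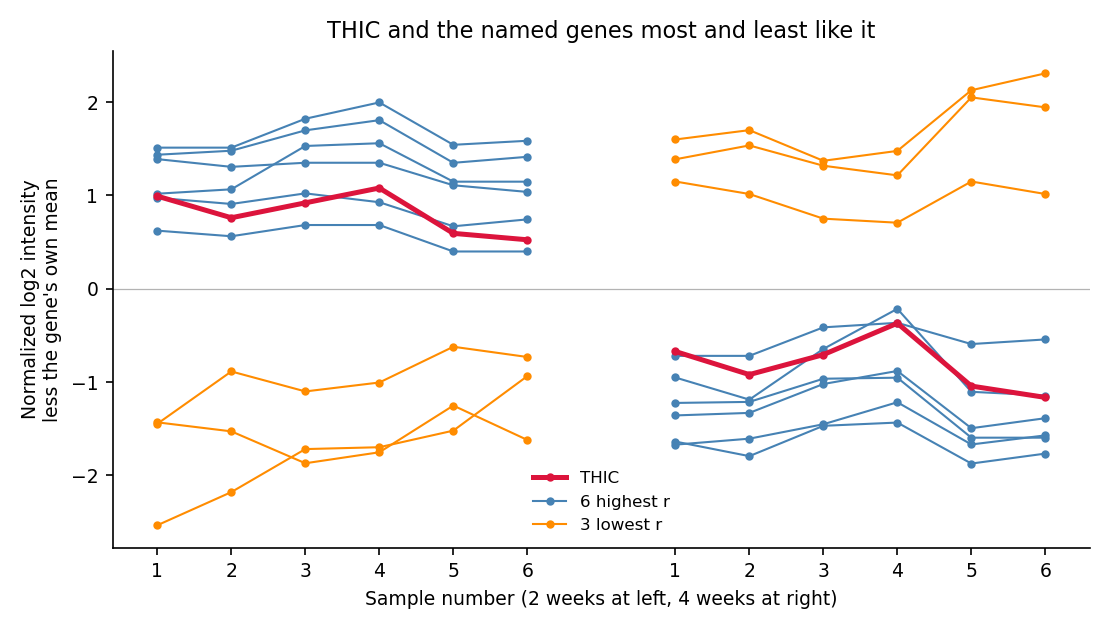
Normalized log2 intensity less the mean of each gene over 12 samples, for THIC (red), the 6 named genes with the highest r with it (blue) and the 3 with the lowest (orange), by sample number at 2 weeks (left) and 4 weeks (right). Lines join the samples of 1 gene and imply no order; numbers 5 and 6 lie low for THIC at both ages.

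When the age means were removed, so that only the differences among samples of one age counted, the 6 highest were largely other genes. The r of these deviations over the 453 genes had a median of 0.052 and ran from -0.903 to 0.877. The 6 genes of the first list also lay well above that median, from 0.654 for AT3G26630 to 0.877 for AT2G46630. The 6 highest were AT2G46630 at 0.877, AT2G29870 at 0.876, AT4G04370 at 0.873, AT4G24750 at 0.870, ATSPS4F, a sucrose phosphate synthase, at 0.861 and AT5G41960 at 0.860. AT2G46630 was the 1 gene on both lists of 6. After quantile normalization the other 5 differed from THIC, at -1.62, in their change with age. AT2G29870, AT4G04370 and AT5G41960 were higher at 4 weeks by 0.78, 0.83 and 1.13 on the log2 scale, AT4G24750 stood at 0.17 and ATSPS4F at -0.32. These sizes depended on the scaling. As deposited, AT2G29870 stood at 2.68, AT4G04370 at 2.65, AT5G41960 at 2.12, AT4G24750 at 1.71 and ATSPS4F at 0.016, around a median of 1.82 over all probes. Under median centring AT5G41960 stood at 0.42 and ATSPS4F at -1.69. THIC itself stood at -0.23 as deposited and at -1.93 under median centring, so ATSPS4F lay near THIC on both of these scales.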

How the data were processed

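Total RNA of 12 samples was measured on arrays, and the authors deposited 1 intensity per probe and sample, on a linear scale from 0 to 100. The steps before deposit (scanning, background, scaling) are not given in the sources used here. The number of arrays limits the precision. Probes were named from the platform's annotation table, in which 692 of 3439 probes have 1 gene, 870 several and 1877 are not listed. Of the 692, 690 were matched to RefSeq (TAIR10.1), used for names only.

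The medians of positive values spanned 1.90 (log2) across arrays, above a limit of 0.2, which led to quantile normalization. A floor was set at 0.0152, percentile 1 of the positive normalized intensities, before log2. Features above the floor on at least 6 of 12 arrays, 2961 in all, were tested with limma 3.58.1 in R 4.3.3 (lmFit, eBayes, two-sided), with probes of the same gene averaged and a fit tested on simulated data. THIC received no p-value. Percentiles are mid-ranks in deposited values.

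The gene, its lists and the alternatives were chosen with earlier results of these data known. Named genes are THIC, each list member with a single-gene probe, the 6 highest and 3 lowest r with THIC, and the 6 highest r of deviations from age means. Samples of the same number deviated together, with r across features from 0.16 to 0.44 in the 6 pairs. Differences of THIC are therefore also given per number. The main limma fit has no term for the numbers, which entered as a block only in an alternative run. The labels leave the meaning of the numbers unsaid.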

Additional observations from a re-analysis of the deposited data

Results flagged for a closer look

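Dixon's test for a single outlying sample was applied to 42 groups of 6 values, those of THIC and of the other named genes, and 1 group passed its critical value, which chance does in about 1 in 20. In that group, PRK at 4 weeks, sample 3 was lowest, at a normalized log2 intensity of -0.78 with the next sample at -0.54. None of the 6 groups of THIC values, deposited, normalized or as percentiles, passed it.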

How the results depend on the processing

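The log2 difference of THIC moved by more than the spread between samples in the deposited values, at -0.23, as a share of the summed intensity, at -0.41, and under median centring, at -1.93, and it stayed negative under all alternatives run. The sum and zeros-as-missing scalings were added after the data were seen. With replicate number as a block the difference is -1.62 by construction, with an SE of 0.087 against 0.16 without pairing, and the block changed none of the 4 calls of list members. With 1 sample left out it ran from -1.71 to -1.55. The percentile difference was -41.6 among tested probes alone, since dim probes are then left out, and it ran from -38.2 to -34.3 with 1 sample left out. AT1G31220 reversed in the deposited values, at 1.77, as a share of the sum, at 1.59, and under median centring, at 0.070, and ATSPS4F in the deposited values, at 0.016. The 3 leaf genes passed as falls under all alternatives run. Between 1837 and 1908 probes and genes were called with 1 sample left out, against 1914 with all. With adjacent numbers averaged, 3 against 3, 1507 were called, 751 higher and 756 lower. In the deposited values the split of calls was 2245 higher and 327 lower, against 994 and 920 after quantile normalization. The deposited values do not settle which scaling is right, so the size of the THIC difference is known only as a range.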
